A study of Mus musculus with 9 samples.

Results

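The cytosolic ribosomal protein genes encode the proteins of the ribosome outside mitochondria and were followed here in mouse uterus after exposure to bisphenol B (BPB) or bisphenol AF (BPAF). The members were every row whose symbol is Rpl or Rps followed by a number and at most a letter and a further digit, together with Rplp0, Rplp1, Rplp2 and Rpsa. Rows with -ps in the symbol, which marks a pseudogene by name, were not members. The rule found 84 of 34619 unique symbols. They comprised 43 core proteins of the large 60S subunit, 3 proteins of the P stalk, 31 core proteins of the small 40S subunit and 7 paralogs, genes related to a core member by duplication. For differences between groups, 80 were tested, because 3 or more of their libraries reached 1 FPKM. FPKM is a fragment count divided by gene length and by library depth, so levels of different genes are compared per length. Rps13, Rpl3l, Rpl10l and Rpl39l were not tested.

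A ribosome needs its proteins in matched amounts, and the genes are among the most strongly transcribed in dividing and secreting tissue. Most of their mRNAs start with a run of C and T, the terminal oligopyrimidine tract, through which mTORC1 and LARP1 regulate their translation. Mammalian genomes also carry many intronless copies of these genes, made by reverse transcription of their mRNAs, and most of these copies are annotated as processed pseudogenes.

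Female mice of the outbred stock CD-1 (ICR), labelled WT and bought at 7 to 8 weeks of age, received pure corn oil (control), BPB or BPAF by gavage for 28 days. The daily dose of either bisphenol was 300 µg for each kg of body weight. BPB and BPAF share the bisphenol frame and differ in the groups on the carbon that joins the rings, which are a methyl and an ethyl in BPB and trifluoromethyl groups in BPAF. All mice ate an estrogen-free diet, and 3 mRNA libraries from the uterus were made per group. Nothing in the labels says whether each library came from a separate mouse, so p-values measure the spread between these libraries. The design text names the 3 groups and a comparison of expression between them.

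The values of each library rested on 12620196 to 15616775 reads, lowest in control 3 and highest in BPB 2. Control 3 stood apart from the other controls. The 13 protein-coding mitochondrial genes took 34.1% of its FPKM sum, against 14.0% and 14.1% in controls 1 and 2 and 19.6% to 27.0% in the exposed libraries. Markers of the labelled tissue were present in every library. The summed level was 657 to 2415 FPKM for 10 uterine epithelial markers and 763 to 2481 FPKM for 10 stromal markers. A list of 15 urothelium markers, genes of the bladder lining, summed to 1882 to 3659 FPKM in BPB 1, 2 and 3 and BPAF 1, with none at 0. It summed to 22.5 to 94.0 FPKM in the other 5 libraries, where 3 to 8 of the 15 were at 0 and Upk3a, a uroplakin that defines the urothelium, was at 0 in each. Smooth muscle markers summed to 7484 to 11998 FPKM in BPB, 3576 to 5699 in control and 1059 to 3446 in BPAF. The part of these marker differences in the results below was not tested. In bulk tissue, fewer cells of a type and less RNA per cell cannot be told apart.

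Most members had near-identical copies elsewhere in the genome, and for many the copy's row held the higher level. Among 83 members with a coding sequence in the GENCODE M21 annotation (mouse build GRCm38), 67 had a copy at least 98% identical over at least 90% of the coding length. An identical copy existed for 23 members, and Rpl3l, Rpl8 and Rps3 had no copy at 85% identity. There were 1261 distinct copies, of which 90 had a row of their own in the files. For 44 members at least 1 copy had a row, and in 18 of these the highest copy row exceeded the member's own mean FPKM. In 10 it did so by more than 10 times in FPKM, which also depends on the length used for each row. Some of these copy rows belong to other genes annotated as protein-coding, such as BC004004 for Rpl21 and, despite its symbol, Rpl9-ps6 for Rpl9. How the authors assigned reads that match several places is not stated in the labels or file headers.

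Sequences are given for 3 of the largest such gaps, because a read covering only shared bases carries no information on which row it belongs to. Each pair of lines gives the same 60 bases of the coding strand, with the differing base in capitals and positions counted from 1 at the start codon. Rpl9, a 60S protein gene at chr5:65388364-65391444 (minus strand), and Rpl9-ps6 at chr19:32465865-32466578 (minus strand) differ over 576 coding bases by 1 substitution, G266A, and bases 236 to 295 are shown.
Rpl9: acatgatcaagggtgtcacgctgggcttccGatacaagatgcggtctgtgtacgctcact
Rpl9-ps6: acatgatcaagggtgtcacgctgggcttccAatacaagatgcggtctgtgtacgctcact
Rpl23a, which sits at the peptide exit of the 60S subunit, at chr11:78180932-78183584 (minus strand), and Rpl23a-ps3, a processed pseudogene at chr14:34170655-34171122 (plus strand), differ by 1 of 468 bases, A116T, and bases 86 to 145 are shown.
Rpl23a: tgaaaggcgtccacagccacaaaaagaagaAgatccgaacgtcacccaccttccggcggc
Rpl23a-ps3: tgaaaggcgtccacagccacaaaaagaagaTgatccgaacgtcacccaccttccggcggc
Rps18, a 40S protein gene at chr17:33951999-33956001 (minus strand), and the copy Gm10260 at chr13:97760072-97760632 (minus strand) differ by 4 of 456 bases, T186C, A337C, G371A and G431A, and bases 156 to 215 are shown.
Rps18: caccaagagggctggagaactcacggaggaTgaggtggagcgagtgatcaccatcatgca
Gm10260: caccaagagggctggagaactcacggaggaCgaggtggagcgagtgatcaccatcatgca

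Beside these sequences the levels in FPKM were far apart. The gene length behind the FPKM was worked out from the steps between values. It was about 10922 bases for Rpl9, 1404 for Rpl23a and 4135 for Rps18, longer than their coding sequences. For Rpl9 and Rps18 it was also longer than the annotated gene at the positions given above. It is the smallest length at which all 9 values are whole reads. It need not be a length over which reads were counted. Lengths behind the copy rows were not worked out, so the gaps in reads need not be as wide as those in FPKM. The Rpl9 row had a mean of 0.898 FPKM over the 9 libraries and the Rpl9-ps6 row 807 FPKM. The Rpl23a row had 3.34 FPKM and the Rpl23a-ps3 row 1401 FPKM. The Rps18 row had 7.01 FPKM and the Gm10260 row 1095 FPKM. Rps27 averaged 1.06 FPKM, whereas Rps27rt, whose coding sequence is identical to it over all 252 bases, averaged 1140 FPKM. The same order held for Rpl11 (2.93 FPKM against 480 for Gm10036), Rpl12 (7.15 against 961 for Gm10275), Rpl27 (9.13 against 628 for Rpl27-ps3) and Rpl5 (23.7 against 854 for Gm15500).

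**Figure D1:**
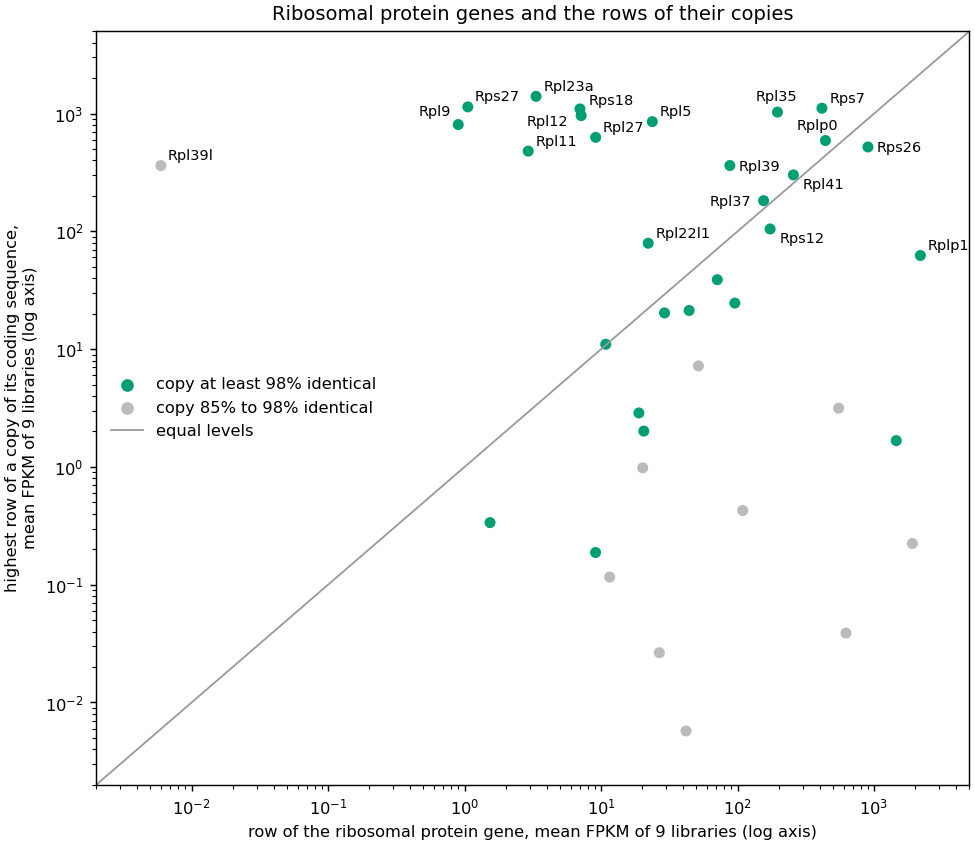
Mean FPKM over the 9 libraries of a ribosomal protein gene's own row (horizontal, log axis) against the highest row of a copy of its coding sequence (vertical, log axis), for 38 genes with both values above 0. Points above the grey line of equal levels are genes whose copy row is the higher; Rpl9, Rps27, Rpl23a, Rpl11, Rpl12, Rps18 and Rpl27 lie furthest above it among the core genes.

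The members' own rows spanned more than 3 orders of magnitude, from 0.835 FPKM for Rps13 to 2185 FPKM for Rplp1 among the 77 core genes and stalk genes (median 86.4, quartiles 18.9 and 317). The 5 highest means belonged to Rplp1 (2185 FPKM), Rpl13a (1909), Rpl4 (1617), Rps24 (1454) and Rps15 (1220). Rplp1 is an acidic protein of the stalk that recruits elongation factors, and Rpl13a is known also as a translational silencer in inflammation. The lowest were Rpl10l, listed at 0 in all 9 libraries, Rpl39l (0.00596), Rpl3l (0.0635), Rps13 (0.835) and Rpl9 (0.898). Leaving aside Rpl3l, Rpl10l and Rpl39l, members without a copy of 98% identity had a median of 329 FPKM (n = 13), those with a copy of 98% but not full identity 79.4 FPKM (n = 44 members), and those with an identical copy 18.9 FPKM (n = 23). Across the 77 core genes, the level followed the number of near-identical copies with a Spearman rho of -0.53. For the share of unique 50-base stretches rho was 0.52, and for the gene length behind the FPKM, by which FPKM is divided, -0.43. These are descriptions across genes of the same libraries, and genes are not independent replicates. When 35 copy rows were added to the 28 members they match, the median over the core genes became 141 FPKM and those under 10 FPKM went from 14 to 7.

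**Figure D2:**
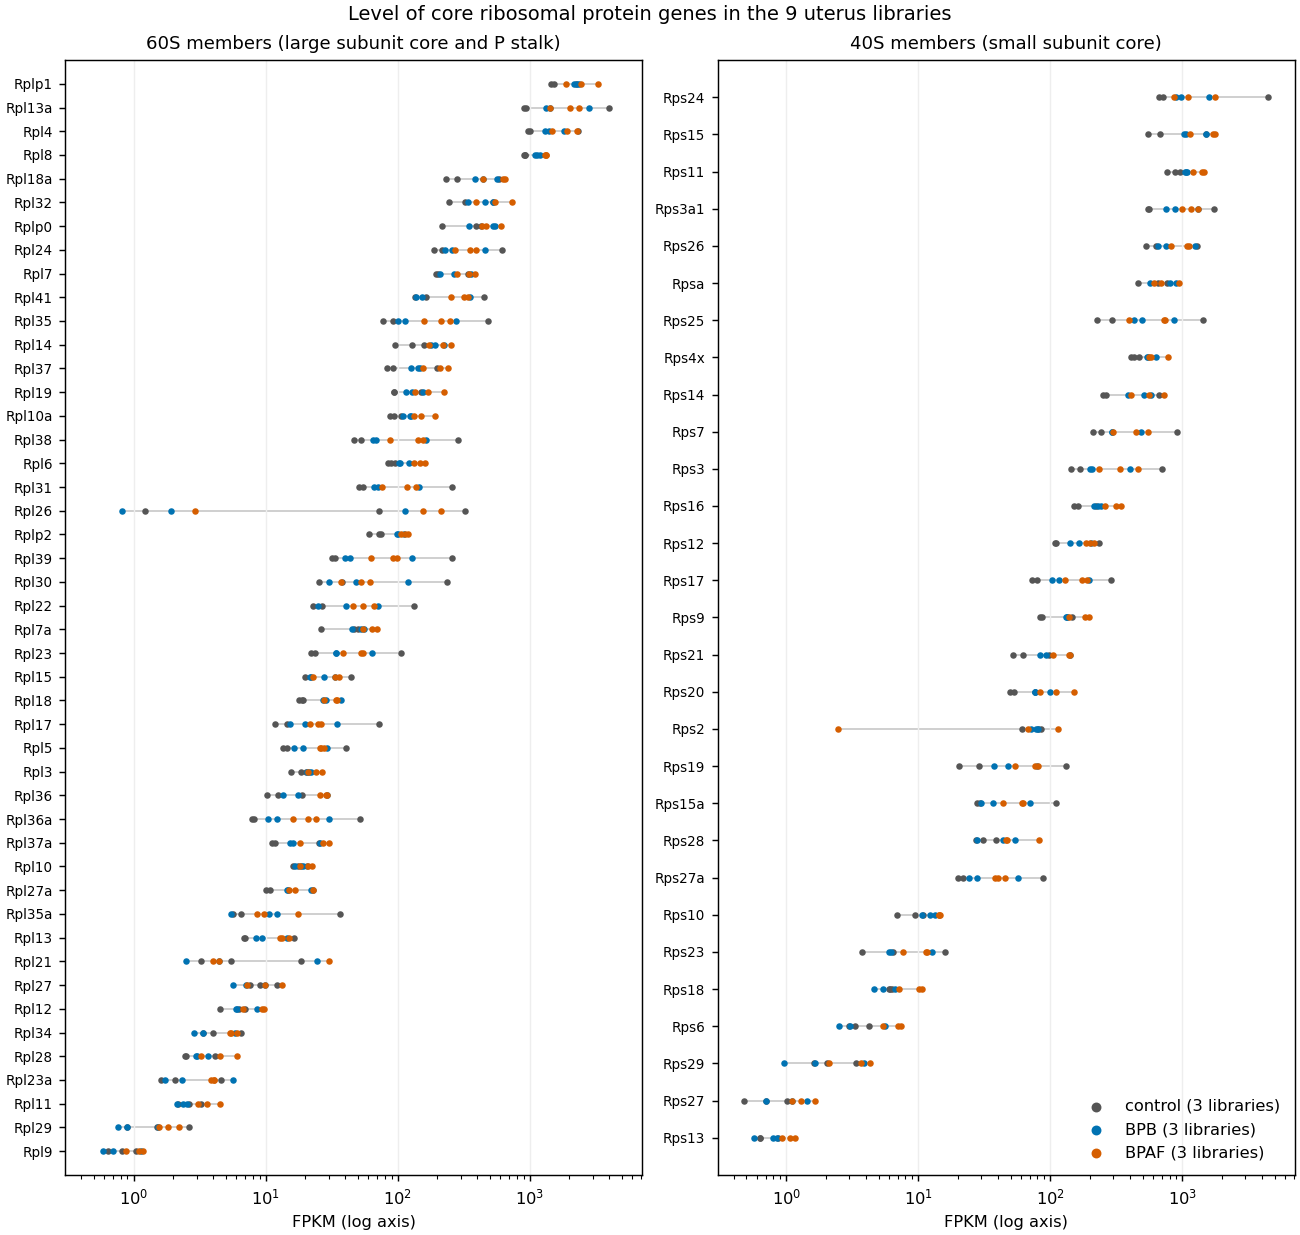
FPKM (log axis) of 75 core ribosomal protein genes in the 9 uterus libraries, 60S and stalk genes on the left and 40S genes on the right, ordered by mean; each point is a library and the grey line joins the lowest and highest. Mean levels run from 0.835 FPKM (Rps13) to 2185 FPKM (Rplp1). The lines of Rpl26 and Rps2 are the longest. Those of Rpl21, Rpl30, Rpl39 and Rps24 are also long, with control 3 the highest library for Rpl30, Rpl39 and Rps24.

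Several genes in this range carry few reads, taken as the smallest whole numbers that fit their values in the 9 libraries. Rpl29 had 254 reads over the 9 libraries together, Rps29 279 and Rps27 383, whereas Rpl4 had 286211 and Rps3 246654. The gene length behind the FPKM, worked out from the steps between values, was 404 bases for Rpl36 and 11869 for Rps15a, with a median of 5.48 times the coding length over 79 tested members. A long length behind the FPKM lowers the value of a short mRNA, which bears on comparisons between genes and not on comparisons of a gene between libraries.

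Among the paralogs, only some had appreciable levels. Rps27l, a paralog known as a p53 target, averaged 81.0 FPKM and Rps27 1.06 FPKM. Their coding sequences, at chr9:66946086-66949516 (plus strand) and chr3:90212522-90213651 (minus strand), differ at 60 of 252 bases, in capitals here.
Rps27: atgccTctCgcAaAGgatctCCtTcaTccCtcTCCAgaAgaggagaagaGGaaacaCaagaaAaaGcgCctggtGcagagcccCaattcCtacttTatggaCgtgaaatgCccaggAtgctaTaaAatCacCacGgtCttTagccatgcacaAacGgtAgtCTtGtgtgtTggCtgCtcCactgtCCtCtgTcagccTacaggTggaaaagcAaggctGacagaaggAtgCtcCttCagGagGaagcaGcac
Rps27l: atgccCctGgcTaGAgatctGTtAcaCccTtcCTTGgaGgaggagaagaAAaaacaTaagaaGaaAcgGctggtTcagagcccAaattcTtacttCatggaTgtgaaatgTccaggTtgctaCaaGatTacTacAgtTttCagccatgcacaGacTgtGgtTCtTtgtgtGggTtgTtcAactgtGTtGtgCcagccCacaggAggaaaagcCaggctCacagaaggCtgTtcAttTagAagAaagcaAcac
Rps27l stood at 38.9, 47.7 and 237 FPKM in controls 1 to 3, 108, 37.3 and 38.4 in BPB 1 to 3 and 103, 66.2 and 52.7 in BPAF 1 to 3. Control 3 was the highest and the groups overlapped. The log2 ratio of Rps27l to Rps27 was 6.76 ± 0.96 in control, 5.69 ± 0.58 in BPB and 5.73 ± 0.21 in BPAF (SD, n = 3), with the Rps27rt row counted in neither. The Rps27 row rested on 21 to 61 reads per library. Rps27rt, identical to Rps27 in coding sequence, averaged 1140 FPKM, above Rps27l, so the order of the pair depends on that row. Rpl22l1, a paralog of Rpl22, was at 11.0, 11.1 and 64.1 FPKM in control, 30.1, 10.2 and 12.2 in BPB and 23.4, 17.4 and 19.9 in BPAF. Its log2 ratio to Rpl22 was -1.13 ± 0.13, -1.42 ± 0.51 and -1.46 ± 0.04 in the 3 groups, from the genes' own rows. Gm15421, a copy 99.7% identical to Rpl22l1, averaged 79.3 FPKM, against 22.2 for the Rpl22l1 row. With that copy row added, Rpl22l1 averaged 101 FPKM, above the 54.0 of Rpl22, so the order of the pair depends on it. Rpl7l1, which is known for a role in 60S assembly, had a log2 ratio to Rpl7 of -2.39 ± 0.52, -3.03 ± 0.15 and -2.87 ± 0.52 in control, BPB and BPAF.

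Rpl3l and Rpl39l were barely read. Rpl3l, a muscle paralog of Rpl3, was at 0.117 FPKM in control 1, 0.363 in BPB 1 and 0.0918 in BPAF 1 and listed at 0 in the other 6 libraries. Rpl39l, known from testis, was above 0 only in BPB 1, at 0.0536 FPKM. That value fits 1 read, but with only 1 value above 0 the read count of Rpl39l is not settled. Its coding sequence at chr16:10170226-10174911 (plus strand) differs from that of Rpl39 at chrX:37082520-37085402 (minus strand) at 23 of 153 bases, in capitals.
Rpl39: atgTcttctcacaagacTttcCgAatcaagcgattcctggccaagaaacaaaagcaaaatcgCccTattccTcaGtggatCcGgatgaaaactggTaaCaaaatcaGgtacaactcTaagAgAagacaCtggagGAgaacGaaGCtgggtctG
Rpl39l: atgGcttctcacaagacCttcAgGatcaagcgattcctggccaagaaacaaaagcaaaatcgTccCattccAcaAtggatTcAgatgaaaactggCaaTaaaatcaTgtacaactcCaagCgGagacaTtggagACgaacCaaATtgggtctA
Rpl39 itself averaged 87.8 FPKM. Rps4l, annotated as a transcribed processed pseudogene of the X-linked Rps4x, averaged 4.43 FPKM, and Rps4x 550 FPKM.

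Within a library most members deviated in the same direction, and libraries of the same group differed from each other. The median FPKM of the 80 tested members was 40.1, 50.6 and 101 in controls 1 to 3, 90.6, 49.7 and 48.0 in BPB 1 to 3 and 101, 58.3 and 81.2 in BPAF 1 to 3. Control 3, BPB 1 and BPAF 1 were the highest of their groups, and the 3 groups overlapped. Relative to each gene's own median, 78 of 80 members were low in control 1 and 69 in control 2. In BPB 1 66 members were above their median, in BPAF 1 66 and in BPAF 3 67. Of the 80 members, 38 had their lowest value in control 1 and 20 in control 2, and 34 had their highest in control 3. The members' share of the FPKM sum ran from 4.51% to 6.55% in control, from 5.35% to 6.46% in BPB and from 5.69% to 7.502% in BPAF. With the 13 mitochondrial genes left out of the sum, it ran from 5.25% to 9.95% in control. It was then 6.68% to 8.49% in BPB and 7.60% to 9.73% in BPAF, so that control 3 had the highest share. The pooled SD of the family median between libraries of a group was 0.54 on the log2 scale.

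**Figure D3:**
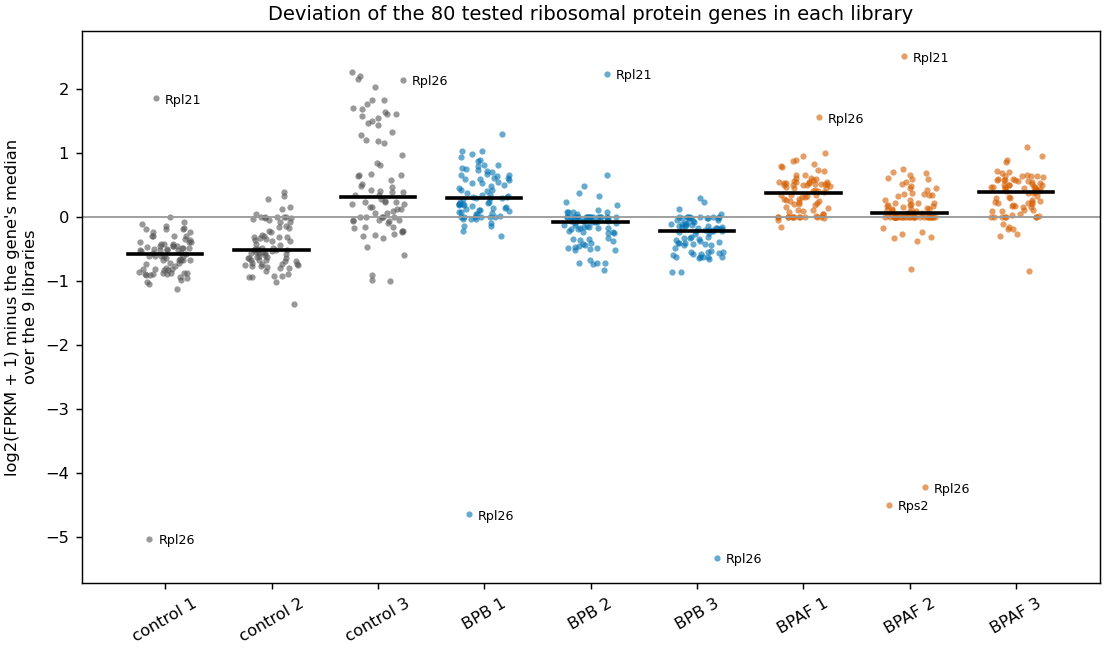
Difference of log2(FPKM + 1) from the gene's own median over the 9 libraries (vertical) for the 80 tested ribosomal protein genes, by library; the black bar is the median of the 80. Controls 1 and 2 lie under 0, control 3 spreads most widely upward, and Rpl26, Rps2 and Rpl21 leave the cloud in single libraries.

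Against control, no member was called in BPB uteri, and the family median did not stand apart from other genes. Limma on log2(FPKM + 1) with Benjamini-Hochberg adjustment over 13743 genes called 0 of 80 members at an adjusted p under 0.05, where 2.55% of all genes were called, 2.05% higher and 0.502% lower. At an unadjusted p under 0.05 there were 3 members, all higher, where 17.4% of all genes reached that level, 12.8% higher and 4.6% lower. The median difference over the members was 0.17 log2 units, beside 0.15 over all tested genes, and 56 of 80 mean log2 levels were higher (63.5% of all genes), as were 45 of 80 mean FPKM. Scaling by the median of ratios turned this median to -0.06 and all genes to -0.04, with 33 mean log2 levels higher. The median was -0.03 without control 1, 0.00287 without BPB 1 and 0.55 without control 3, and 22 members had an unadjusted p under 0.05 without control 3 (18.5% of all genes).

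Rpl18, a 60S protein, had the smallest p in this comparison, at 18.8, 19.4 and 17.8 FPKM in control and 37.1, 28.9 and 27.1 in BPB. All BPB libraries were above all controls, the log2 difference was 0.69 ± 0.22 (SE) and the limma adjusted p was 0.151. Rplp2, a P stalk protein, was at 60.5, 74.9 and 71.8 FPKM in control and 112, 99.7 and 101 in BPB. It too did not overlap (log2 difference 0.59 ± 0.23, limma adjusted p = 0.214). Rpl14 of the 60S subunit was at 128, 159 and 95.8 FPKM in control and 224, 194 and 180 in BPB, a difference of 0.67 ± 0.29 with an adjusted p of 0.275 in limma.

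On the low side of BPB against control, Rpl7l1 was the only member whose libraries did not overlap, at 41.3, 51.8 and 44.1 FPKM in control and 38.7, 34.6 and 27.3 in BPB. Its log2 difference was -0.44 ± 0.25 and its limma adjusted p 0.412. By p, the next lower members, Rpl29 (-0.34), Rpl27 (-0.33) and Rpl26 (-2.15), overlapped between the groups. In all, 10 members were higher without overlap of the libraries (19.5% of all genes were) and 1 lower (6.1%).

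In BPAF uteri, 74 of 80 mean log2 levels were above control (70.1% of all genes), and again no member passed the adjusted test. Limma called 0 of 80 (0.0218% of all genes were called, 0.00728% higher and 0.0146% lower). At an unadjusted p under 0.05 there were 14 members, all higher, where 12.8% of all genes reached that level, 10% higher and 2.75% lower. On mean FPKM, 59 of 80 members were above control and 21 under it. The median difference over the members was 0.46 log2 units, beside 0.21 over all tested genes. Scaling by the median of ratios took all genes to -0.02 and the members to 0.18, with 60 mean log2 levels higher and 0 members at an unadjusted p under 0.05. The median was 0.27 without control 1 and 0.82 without control 3, and 50 members were at an unadjusted p under 0.05 without control 3 (15.6% of all genes). The smallest adjusted p without that library was 0.18, so no member was called then either. The libraries of 21 members did not overlap and were higher in BPAF (14.3% of all genes), and of 0 lower (2.5%).

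Rpl18 was again first, at 34.4, 27.5 and 34.8 FPKM in BPAF against 17.8 to 19.4 in control, a log2 difference of 0.75 ± 0.22 (SE) with a limma adjusted p of 0.301. Rpl36, a 60S protein, was at 10.3, 12.3 and 18.8 FPKM in control and 29.1, 25.9 and 28.5 in BPAF, the largest difference among members that were higher, at 1.0 ± 0.32 (limma adjusted p = 0.304). Rplp2 was at 107, 114 and 119 FPKM in BPAF, above its 60.5 to 74.9 in control, with a difference of 0.71 ± 0.23 and the same limma adjusted p. Others at an unadjusted p under 0.05 were Rpl6, Rpl10a and Rpl14 of the 60S subunit and Rps6, Rps9, Rps10, Rps16, Rps20, Rps21 and Rps28 of the 40S subunit.

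The 6 members with a lower mean log2 level in BPAF were led by Rps2, Rps4l, Rpl30 and Rps24, none past the test. Rps2, a 40S protein of the mRNA entry, had a log2 difference of -1.32 ± 1.05, and 0.24 without BPAF 2. Rpl30 was at 37.7, 25.5 and 238 FPKM in control and 62.1, 37.3 and 52.5 in BPAF, so that its negative difference of -0.31 ± 0.78 turned to 0.66 without control 3. Rps24 likewise went from -0.11 to 0.79 without control 3, where it stood at 4486 FPKM against 712 and 669 in the other controls. Rps4l was at 3.48, 4.54 and 4.76 FPKM in control and 6.62, 2.14 and 2.07 in BPAF.

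**Figure D4:**
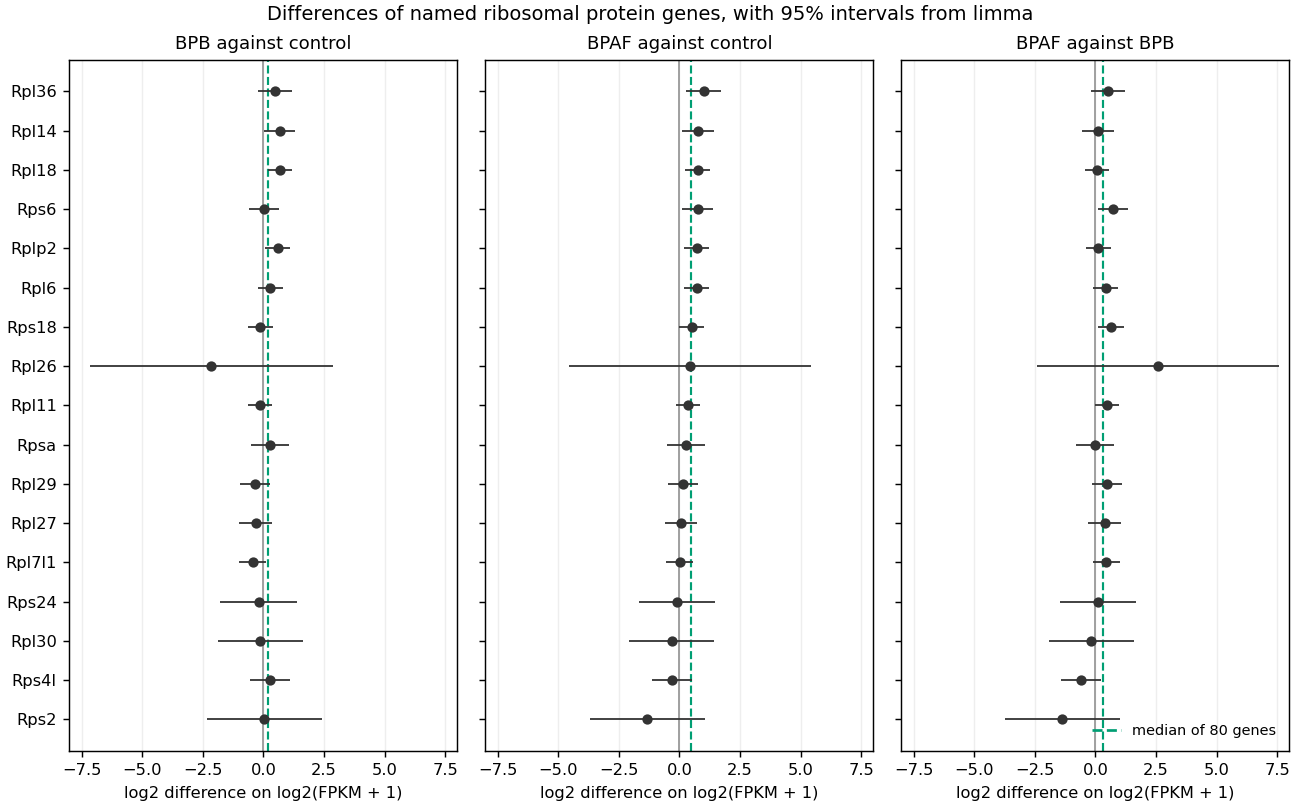
Log2 difference on log2(FPKM + 1) with its 95% interval from limma for 17 ribosomal protein genes that had one of the 4 smallest p in either direction of a comparison; the dashed line is the median of the 80 tested genes. None passes the adjusted test. The dashed median is 0.17 for BPB against control, 0.46 for BPAF against control and 0.32 for BPAF against BPB. With the median of ratios both medians against control were lower, that of BPB at -0.06.

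Between the bisphenols at the same dose and time, 76 of 80 means, of log2 levels and of FPKM, were higher in BPAF than in BPB (59.1% of all genes), also with equal FPKM sums and with the median of ratios, and no member was called. Limma called 0 of 80 members (0.24% of all genes were called, all of them lower). At an unadjusted p under 0.05 there were 2 members, both higher, where 6.75% of all genes reached that level, 1.94% higher and 4.81% lower. The median difference was 0.32 log2 units, beside 0.07 over all tested genes. Between libraries of the same number, which deviated together, the family's median log2 level was 6.51 in BPB and 6.67 in BPAF for number 1, 5.65 and 5.89 for number 2 and 5.62 and 6.36 for number 3, higher in BPAF each time. The median difference was 0.17 without BPB 3 and 0.50 without BPB 1. The libraries of 11 members did not overlap and were higher in BPAF (6.54% of all genes), and of 0 lower (6.41%). A joint limma test of the 3 groups called 0 of 80 members (0.844% of all genes), with 9 at an unadjusted p under 0.05, where 15.1% of all genes reached that level.

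Rps18, a 40S protein, was at 6.61, 5.44 and 4.65 FPKM in BPB and 7.11, 10.6 and 10.1 in BPAF. The 2 sets did not overlap, and the log2 difference was 0.64 with a 95% interval of 0.12 to 1.16 and a limma adjusted p of 0.507. The row of its near-identical copy Gm10260 averaged 1008 FPKM in BPB and 1389 in BPAF, a difference of 0.45 ± 0.42. These FPKM are more than 100 times those of Rps18. The length worked out for Rps18 was about 4135 bases, longer than the annotated gene, and none was worked out for Gm10260. The gap in reads therefore need not be as wide. Rps6, the 40S protein that S6 kinase phosphorylates, was at 5.56, 3.06 and 2.53 FPKM in BPB and 6.97, 7.41 and 5.43 in BPAF. BPAF 3 lay just under BPB 1, and the difference was 0.73 (95% interval 0.11 to 1.36, limma adjusted p = 0.575). Rpl11, which binds MDM2 together with Rpl5 and 5S RNA, was at 2.55, 2.38 and 2.13 FPKM in BPB and 3.60, 4.52 and 3.09 in BPAF, a difference of 0.49 with an interval of -0.00381 to 0.98. Rpl6 differed by 0.42 (interval -0.10 to 0.94). For Rpsa, the laminin receptor precursor, the difference was -0.01 with an interval of -0.79 to 0.76, which spans differences in both directions.

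Over all tested genes the median difference was 0.15 in BPB and 0.21 in BPAF against control, and 0.07 for BPAF against BPB. The 43 core 60S members had medians of 0.09, 0.42 and 0.32 in these comparisons. The 30 tested core 40S members had 0.26, 0.50 and 0.32. The 4 tested paralogs had medians of -0.40 and -0.05 against control and 0.37 between the bisphenols. The 3 stalk proteins had mean log2 levels above control in both exposures, with medians of 0.49 and 0.59, and 0.12 between the bisphenols. Rplp0, the stalk base, was at 390, 428 and 215 FPKM in control, 349, 543 and 528 in BPB and 432, 467 and 610 in BPAF, with control 3 the lowest of all 9. Rplp1 was at 1443, 1533 and 2263 FPKM in control, 2278, 2372 and 2156 in BPB and 3311, 1871 and 2434 in BPAF, overlapping between the groups.

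The pair of 5S particle proteins, Rpl5 and Rpl11, had a median difference of -0.03 in BPB and 0.38 in BPAF against control. Over all tested genes the medians were 0.15 and 0.21, with 63.5% and 70.1% of mean log2 levels higher. Rpl5 was at 13.6, 14.5 and 40.7 FPKM in control, 29.4, 19.2 and 16.3 in BPB and 27.9, 25.8 and 26.2 in BPAF, with control 3 the highest. Of 8 members at the peptide exit, 3 had a higher mean log2 level in BPB and 8 in BPAF, and of 9 genes mutated in Diamond-Blackfan anaemia, an inherited failure of red cell production, 5 and 8. Rps19, the gene most often named in that disease, was at 29.0, 20.4 and 133 FPKM in control, 79.0, 37.5 and 47.4 in BPB and 76.2, 54.1 and 80.9 in BPAF. Control 3 lay above every exposed library and controls 1 and 2 under every one. The 4 X-linked members had a median difference of 0.02 in BPB and 0.35 in BPAF. Rps4x was at 412, 427 and 468 FPKM in control, 539, 632 and 554 in BPB and 555, 578 and 783 in BPAF, above control without overlap in both exposures, with log2 differences of 0.40 ± 0.28 and 0.54 ± 0.28 (limma adjusted p = 0.525 and 0.447). None of these lists held a called member in any of the 3 comparisons, and the 2 comparisons with control share the 3 control libraries.

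Control 3 differed from the other controls member by member. Its log2 level minus the mean of controls 1 and 2 had a median of 0.95 over the 80 members and -0.31 over all 13743 tested genes. A difference above 1 was seen for 39 members, or 48.8%, and for 7.57% of all genes. The most raised, beside Rpl26, were Rpl39 (2.94), Rpl30 (2.90), Rps24 (2.70), Rpl36a (2.56), Rpl38 (2.502) and Rpl35 (2.497). Rpl13a stood at 3968 FPKM in control 3 against 937 and 910 in controls 1 and 2, and Rps25 at 1442 against 226 and 291. At the other end, Rplp0 (-0.92), Rpl7a (-0.86) and Rpl14 (-0.57) were lower in control 3. The median difference was 1.60 for the 27 members with the shortest coding sequence (75 to 399 bases), 0.996 for 25 of middle length and 0.28 for the 27 longest (576 to 1257 bases). It was 2.03 for the 27 members with the lowest GC content of the coding sequence and 0.64 for the 26 with the highest. Across 79 members Spearman's rho was -0.44 with coding length and -0.44 with GC content, a description over genes of 3 libraries. The deviations in BPB 1 and BPAF 1 also went with shorter coding length, with a rho of -0.45 and -0.34, and in BPB 1 with lower GC content (-0.34). The part of RNA quality or library preparation in this was not tested.

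Rpl26, Rps2 and Rpl21 departed from the family pattern and were singled out after their values were seen. After removal of each gene's and each library's median, they were the only members with a residual above 2 log2 units. Rpl26, a 60S protein that also binds p53 mRNA, was at 1.23, 72.2 and 323 FPKM in control, 1.91, 114 and 0.813 in BPB and 214, 2.90 and 155 in BPAF. It was low in 4 libraries, with 27 to 105 reads, and high in 5, with 2479 to 10084 reads, and each group held both states. The gap between the states was 4.23 log2 units. Among all other tested genes that split the libraries the same way, 7 in number, the widest gap was 0.10, for Phospho2. Of the protein-coding genes around Rpl26 that have a row, the nearest, Rnf222 and Odf4, were at or near 0 FPKM in all 9 libraries. Further out, Ndel1 was at 9.99 to 17.3 FPKM and Arhgef15 at 0.731 to 2.83 FPKM. Rpl26 lies at chr11:68901583-68906989 (plus strand) in GRCm38. One of its copies, the processed pseudogene Gm15772 at chr5:3236431-3236868 (plus strand), has no row in the files and differs over 435 bases by C177T and T288C, of which the first is shown in bases 147 to 206.
Rpl26: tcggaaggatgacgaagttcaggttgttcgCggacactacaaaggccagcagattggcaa
Gm15772: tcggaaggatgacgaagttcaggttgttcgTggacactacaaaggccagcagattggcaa
Because the states are spread over the groups, the log2 difference of Rpl26 had an interval from -7.15 to 2.85 for BPB against control.

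Rps2 was low in BPAF 2 alone, at 2.46 FPKM and 173 reads, against 60.8 to 114 FPKM and 4364 to 7026 reads in the other 8 libraries. Its near-identical copy Rps2-ps10 was at 34.5 FPKM in BPAF 2, at 200 FPKM in BPB 2 and at 14.3 to 20.6 FPKM in the other 7 libraries. In BPB 2 Rps2 itself was at 77.3 FPKM, within the range of the rest. The Rps2 gap was 4.16 log2 units, and of 596 other genes lower in BPAF 2 than in every other library the widest gap was 4.74, for Cfd. Rpl21, a 60S protein with 87 copies at 85% identity, was high in control 1 (18.7 FPKM), BPB 2 (24.6) and BPAF 2 (29.99), with 1263 to 1964 reads. It was at 2.51 to 5.49 FPKM and 151 to 311 reads in the other 6, so that each group held 1 high library and 2 low ones. Its gap was 1.60 log2 units, against at most 1.07, for Ikzf3, among 214 other genes with that split. The gene BC004004, annotated as protein-coding, has a transcript 98.5% identical to the Rpl21 coding sequence. The row of BC004004, which is for the gene as a whole, was at 8.98 to 16.2 FPKM throughout.

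**Figure D5:**
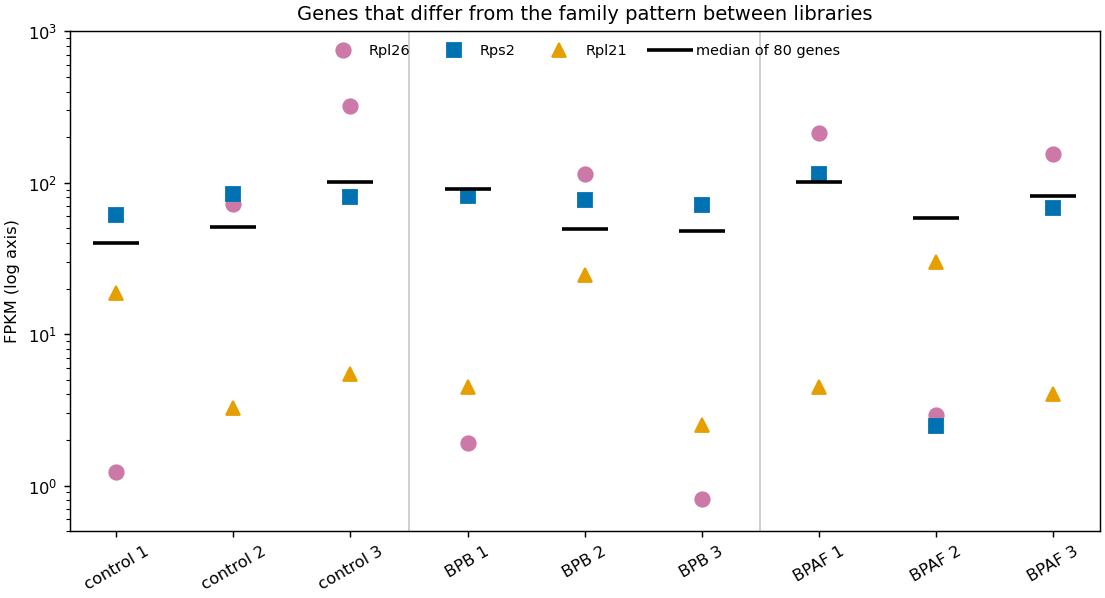
FPKM (log axis) of Rpl26, Rps2 and Rpl21 in each library, with the median of the 80 tested ribosomal protein genes as a black bar. Rpl26 is under 3 FPKM in control 1, BPB 1, BPB 3 and BPAF 2 and above 72 FPKM elsewhere, Rps2 is low in BPAF 2 only, and Rpl21 is high in control 1, BPB 2 and BPAF 2.

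The start of transcription was compared with the terminal oligopyrimidine rule, since most members deviated together between libraries. The motif was a C at the annotated start followed by at least 4 bases that are each C or T, read on the gene's strand only. RefSeq gave 75 start windows for 63 members in GRCm38.p6, and 13 of them (17.3%) held it, against 2.51% of all 32851 windows. The following show 15 bases on each side of the annotated start, with the run from the first C in capitals, for some members named above. All of those shown but Rpl18 hold the motif, whereas the windows of Rpl6, Rpl11, Rps16 and Rps4x, also named above, do not. Rps6 lies at chr4:86857353-86857382 (minus strand), Rplp2 at chr7:141447636-141447665 (plus), Rps18 at chr17:33955651-33955680 (minus), Rpl14 at chr9:120571502-120571531 (plus) and Rpl18, where the letters are not at the annotated start, at chr7:45718056-45718085 (plus).
Rps6: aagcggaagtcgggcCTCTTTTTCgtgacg
Rplp2: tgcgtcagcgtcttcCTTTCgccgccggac
Rps18: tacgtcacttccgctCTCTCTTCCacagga
Rpl14: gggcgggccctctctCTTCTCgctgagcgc
Rpl18: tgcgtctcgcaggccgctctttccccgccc
A match is a description of the annotated letters, and an annotated start can be some bases from the start in use.

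Other genes of the translation machinery were read from lists, in which no gene was called except 1 p53 target. For comparison, 63.5% of all tested genes had a higher mean log2 level in BPB and 70.1% in BPAF. The median differences over all tested genes were 0.15 and 0.21. Of 22 tested mRNAs outside the family that carry a terminal oligopyrimidine tract, 0 passed the adjusted test, and the median difference was 0.18 in BPB and 0.56 in BPAF against control. Fau, which encodes 40S protein eS30 fused to a ubiquitin-like protein, was at 154, 154 and 186 FPKM in control, 263.9, 270 and 246 in BPB and 399, 261 and 359 in BPAF. Neither exposed group overlapped control, with differences of 0.66 ± 0.27 and 1.02 ± 0.27 (limma adjusted p = 0.246 and 0.284). Of 7 tested elongation factors, 5 mean log2 levels were higher in BPB and 6 in BPAF. Eef1a1, which delivers aminoacyl-tRNA, averaged 878 ± 183 FPKM in control, 1327 ± 230 in BPB and 1447 ± 207 in BPAF (SD, n = 3; limma adjusted p = 0.388 and 0.391). Of 30 initiation factors, 11 and 23 mean log2 levels were higher, with Eif4b at 120 ± 15.9 FPKM in control and 210 ± 29.5 in BPAF (adjusted p = 0.309 in limma). Of 67 ribosome assembly factors, 35 and 63 mean log2 levels were higher, among them Imp3, a small subunit processome protein, at 39.0 ± 3.38 FPKM in control and 68.5 ± 8.69 in BPAF (limma adjusted p = 0.290).

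For 10 snoRNA host RNAs, several of which carry the same tract, the median difference was 0.10 in BPB and 0.61 in BPAF against control. Over all tested genes it was 0.15 and 0.21. Of regulators, 20 genes of the mTORC1 and LARP1 axis had a median difference of 0.20 in BPB and 0.10 in BPAF. Ddit4, an inhibitor of mTORC1 that stress induces, averaged 67.3 ± 23.8 FPKM in control, 29.3 ± 7.80 in BPB and 34.2 ± 11.9 in BPAF (limma adjusted p = 0.155 and 0.352). Ddit4 was thus lower in both exposures, whereas other inhibitors of mTORC1 named from the same list lay higher in the comparisons given here. None passed the test. Deptor averaged 3.45 ± 1.07 FPKM in control and 10.6 ± 5.43 in BPB (limma adjusted p = 0.102), and Sesn2 3.89 ± 1.60 and 7.95 ± 1.94 (limma adjusted p = 0.162). Sesn1 averaged 7.18 ± 0.706 FPKM in control and 30.9 ± 28.3 in BPAF (limma adjusted p = 0.346). Myc, a transcription factor known to drive ribosome synthesis, averaged 2.81 ± 0.763 FPKM in control and 7.03 ± 4.11 in BPAF (adjusted p = 0.332 in limma). Of 15 p53 targets, 1 was called, Plk2, a stress-induced kinase, which fell from 68.3 ± 47.3 FPKM in control to 11.4 ± 2.96 in BPB (log2 difference -2.30, limma adjusted p = 0.0416). The next by p in BPB were higher and did not pass the limma test, Phlda3 by 1.45 log2 units (adjusted p = 0.0724) and Eda2r by 1.30 (adjusted p = 0.158). The 77 tested mitochondrial ribosomal protein genes, a separate family, had library medians of 3.49, 3.65 and 4.04 on the log2(FPKM + 1) scale in control, 4.07, 3.62 and 3.59 in BPB and 4.23, 4.02 and 3.58 in BPAF. They were highest in BPAF 1 and BPB 1, and BPAF 3 was the lowest of the BPAF libraries.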

How the data were processed

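Each of the 9 deposited files gives a value per gene symbol and names no unit. They were taken as FPKM computed by the authors, since for 84.8% to 86.7% of the values above 0 of single-transcript genes they came out as whole reads within 0.01 (GENCODE M21 lengths). The labels and file headers name no aligner, counting tool, build or annotation. Of 34745 lines, 126 with a repeated symbol were left out. The design foresaw counts or normalized values; as FPKM are not counts, limma 3.58.1 (R 4.3.3) with mean-variance trend and robust estimation was fitted on log2(FPKM + 1), 9 libraries in 1 fit with group as the term, Benjamini-Hochberg over 13743 genes, two-sided. That scale understates changes of low genes. Self-tests were run on simulated data. Copies were found with BLAST 2.17.0 in GENCODE M21, and start windows came from RefSeq.

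The members and lists were chosen with earlier results of these data known. Named were, per comparison, the 4 members with the smallest p in each direction, the 5 highest and 5 lowest levels, stalk, 5S particle and paralog genes and a few fixed ones, and of each other list the called genes and up to 3 with the smallest p. Same-numbered BPB and BPAF libraries deviated together (correlations 0.34, 0.34 and 0.48), but those of control did not deviate with either (-0.40 to -0.08). Nothing in the labels says that the numbers pair mice. Apart from the replicate block, all p-values, SEs and intervals come from fits without pairing. That block was fitted on all 9 libraries, control included, and a paired test of BPAF against BPB alone was not run. Values of some single members are not reported here.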

Additional observations from a re-analysis of the deposited data

How the results depend on the processing

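No member was called under any alternative run: another pseudocount, no filter or a filter at a mean of 10 FPKM, no trend or no robust estimation, the 6 libraries of a comparison alone, 3 scalings, centring on the family, each library left out in turn, and, chosen after seeing the data, control 3 with BPAF 1 left out, Rpl26, Rps2 and Rpl21 left out, and copy rows summed into the members. The replicate block called 0 members in all comparisons, with the smallest adjusted p at 0.243, 0.401 and 0.709, and changed no call. Leaving out 1 library gave medians of -0.03 to 0.55 (BPB against control), 0.27 to 0.82 (BPAF against control) and 0.17 to 0.50 (BPAF against BPB). Signs of uncalled single members turned as follows; for the library effects the cause was not tested beyond the omission itself. Rpl30 ranged from -0.93 to 0.66 (without control 3) for BPAF against control, and from -0.61 to 0.37 (without BPB 1; 0.03 without BPAF 2) for BPAF against BPB. Rps24 ranged from -0.58 to 0.79 (without control 3; 0.12 without BPAF 2) against control. Rps2 ranged from -2.29 to 0.24 against control and from -2.33 to 0.19 against BPB, both highest without BPAF 2. Rpsa against BPB ranged from -0.20 to 0.12 (0.05 without BPB 1, 0.12 without BPB 2, 0.12 without BPAF 1, 0.04 without BPAF 3). With control 3 and BPAF 1 left out, Rpl30 was 0.50, Rps24 0.84 and Rpsa 0.12. With copy rows summed, Rpl27 was 0.26 in BPB. With 254 reads for Rpl29 in all libraries, depth limits the lowest members.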
